A study of Mus musculus with 48 samples.

Results

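The transcriptomes of 3 naïve irises and 3 native livers, the reference tissues of a study that placed liver spheroids on the mouse iris, were set against each other gene by gene. All 6 samples carried the labels genotype WT Albino and strain C57BL/6N. The irises had received no graft and were labelled as tissue without explants, while the livers came from the donor mice, and no treatment or time was given for either. These 6 of the 16 samples of the series were chosen by their labels alone. Each had been sequenced as 3 technical libraries by Smart-seq3, a full-length method, on total RNA, so 18 of 48 libraries entered, already summed per sample. The mice were adults, and the sources used here do not say whether a sample was 1 animal or a pool, so p-values measure only the spread between these samples.

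The iris is the muscular diaphragm of the eye. Its stroma holds fibroblasts, vessels, nerves and melanocytes of neural crest origin, and its back is lined by a pigmented epithelium that derives, like its sphincter and dilator muscles, from the optic cup. The liver is built mainly of hepatocytes, which secrete most plasma proteins, make glucose and urea, synthesise bile acids and clear foreign compounds. Sinusoidal endothelial cells, Kupffer cells, stellate cells and cholangiocytes make up most of the rest.

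Total counts were 4596550 to 4881817 per iris and 3523171 to 3871404 per liver. Levels are given as TPM, the count per base of gene model scaled to a fixed sum per sample, and they are compared between genes only on this per-length scale. In the irises 19894 to 20303 genes reached 1 TPM and in the livers 15386 to 16477. The transcript pool of the liver was the narrower one, since 665 to 735 genes held 50% of its TPM against 1429 to 1485 in the irises. After the removal of duplicate reads, counts per base peaked at 1.703 in a library when only genes with a length of 500 or more were considered. The fits were repeated with a modelled limit of 1.7 counts per base and library undone. Whether such a limit acted on these libraries was not tested. Genes were taken as abundant in a tissue at 200 TPM or more, with at least 500 bases and under 0.4 counts per base in each of its libraries. The last limit left out the most abundant genes, such as Alb. Among 849 genes so taken as abundant in liver, the level in iris was at least 0.409% of that in liver, and 848 were counted in all 3 irises. Among 842 genes abundant in iris, the level in liver was at least 0.808% of that in iris, and the source of these floors was not tested. A sample stood apart in each tissue. Of 8294 genes at a mean of 10 TPM or more in liver, 139 were 3-fold or more above or below both other livers in liver 1, against 17 in liver 2 and 11 in liver 3, and counts of called list members that moved by over 1.5 times without liver 1 are given both ways. Of 11382 such genes in iris, 50 stood apart in this way in iris 3, against 6 in iris 1 and 5 in iris 2. In bulk tissue a smaller share of cells of a type and less of an RNA per cell cannot be told apart.

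Of 46517 genes in the table, 17456 had no count in any of the 6 samples and 15459 passed the filter on low counts and were tested. With edgeR's quasi-likelihood test (Benjamini-Hochberg adjusted p under 0.05, absolute log2 fold change over 1), 4606 genes were higher in iris, 29.8% of those tested, and 3422 were higher in liver, or 22.1%, so that 51.9% were called. These shares are the backgrounds for every count of called list or family members from this test. On this normalised scale the 3 irises and 3 livers did not overlap for 4593 and 3390 of the genes called, while 78% of all genes tested did not overlap, 41.8% with the irises and 36.2% with the livers on top. Differences of at least 10-fold numbered 1595 towards iris and 994 towards liver, whereas those of at least 100-fold numbered 32 and 313. In an alternative, a share of the other tissue was subtracted from each sample. The share was the 5th percentile of these ratios, 0.808% of the liver level for irises and 2.63% of the iris level for livers. A gene below its share in every sample was thus left at 0 by construction. With genes left without a count set to their bound, 254 and 379 differences were then at least 100-fold. A gene counted in a single tissue passed the filter through that tissue and had to differ. Of the genes called, 2017 towards iris had fewer than 10 counts in every liver, and 364 towards liver had fewer than 10 in every iris. The median log2 fold change of all genes tested, iris minus liver, was 0.11 on the scaling by trimmed mean of M values (TMM). Scaled by library size alone, the median was 0.80, a shift of 0.68, and the calls became 6803 towards iris and 1973 towards liver, with 6579 genes called in the same direction by both and 0 in opposite directions. On the TMM scale a gene with equal TPM in both tissues has a log2 fold change below 0, as mt-Nd1, a subunit of mitochondrial complex I, showed with 2852, 2989 and 2828 TPM in the irises, 2879, 2999 and 2801 TPM in the livers and a log2 fold change of -0.89 ± 0.09 (SE).

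**Figure D1:**
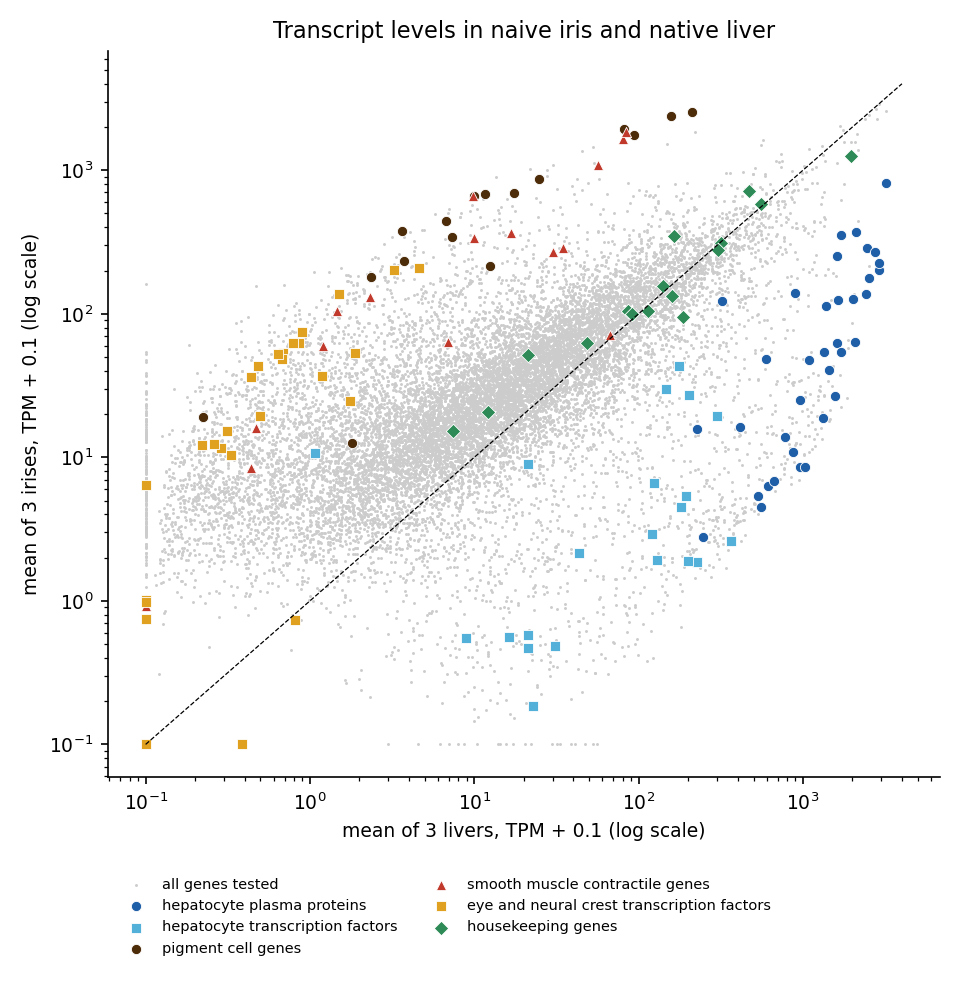
Mean TPM of 3 irises (vertical axis) against mean TPM of 3 livers (horizontal axis), both as TPM + 0.1 on log scales, with 15459 tested genes in grey, members of 6 lists in colour and a dashed line of equal TPM. Plasma proteins and hepatocyte transcription factors lie below the line apart from Esrrg, pigment and eye genes above it, and housekeeping genes near it.

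Secreted plasma proteins gave the largest surplus of TPM in liver among the lists. All 36 listed genes passed the filter, and 36 were higher in liver, on a background of 22.1%, with a median log2 fold change of -5.46 against 0.11 over all genes tested. Their summed level was 50372, 52651 and 51183 TPM in livers 1, 2 and 3 and 3753, 4538 and 4446 TPM in irises 1, 2 and 3. Alb, the gene of serum albumin, had the highest mean level in liver, with 3310.1, 3258 and 3097 TPM, and stood at 753, 861 and 822 TPM in the irises. The groups did not overlap, and the log2 fold change was -2.88 ± 0.09 (adjusted p = 1.83e-08). Alb held 1.56 counts per base and library in the livers, and undoing the modelled limit enlarged its difference from 7.35-fold to 17.6-fold, the largest gain among the called genes. Hpx, the haem carrier hemopexin, held 3015, 2982 and 2718 TPM in the livers and 196, 238 and 239 TPM in the irises. Ahsg, the carrier fetuin-A, held 3144, 2817 and 2699 TPM and 182.4, 207 and 216 TPM, and Gc, the vitamin D binding protein, 2612, 2529 and 2462 TPM and 165, 180.2 and 186 TPM. In each of these 3 genes every liver lay above every iris, and the irises still held over 160 TPM.

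Less abundant secreted proteins differed more steeply. Apob, the structural protein of very low density lipoprotein, had 674, 493 and 668 TPM in the livers and 4.95, 7.42 and 6.18 TPM in the irises (log2 fold change -7.51 ± 0.20). F9, coagulation factor IX, had 256, 219.9 and 259.7 TPM and 3.73, 1.88 and 2.44 TPM. Hamp, the iron hormone hepcidin, had 1175, 969.7 and 922 TPM and 4.59, 9.82 and 10.8 TPM, so that the irises held 0.823% of the liver level. Ceruloplasmin (Cp), the copper-carrying ferroxidase, was the member with the smallest difference, at 356, 285 and 329 TPM in the livers and 129.7, 112 and 125 TPM in the irises (log2 fold change -2.29 ± 0.10). The same held for families of secreted proteins. Of 17 tested Serpina genes, the protease inhibitors of plasma, 17 were higher in liver, although reads shared between near-identical copies leave single members uncertain. Of the 17, 4 had fewer than 10 counts in every iris. Complement genes were higher in liver for 20 of 22 tested. The exceptions were C7, a part of the terminal attack complex, with 17.5, 16.6 and 15.7 TPM in the irises and 2.83, 0.78 and 0.73 TPM in the livers, and C2, a protease of the classical pathway, which was not called. Among apolipoproteins, 14 of 17 were higher in liver and 2 in iris, namely Apod, a lipocalin made in many tissues, with 140.4, 117 and 94.9 TPM in the irises against 1.35, 1.37 and 3.84 TPM, and Apol8.

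The transcription factors of hepatocytes followed the same direction. Of 21 listed factors, 20 were higher in liver, on a background of 22.1%, and 1 in iris, with a median log2 fold change of -6.07. Of the 20, 6 had fewer than 10 counts in every iris. Hnf4a, a nuclear receptor that maintains the hepatocyte programme, had 234, 211 and 233 TPM in the livers and 1.74, 1.46 and 2.14 TPM in the irises (log2 fold change -7.85 ± 0.15, adjusted p = 3.59e-09). Creb3l3, a membrane-bound factor of fasting and lipid genes, was more abundant still, with 377, 356 and 363 TPM against 2.39, 2.34 and 2.82 TPM. Foxa2, a pioneer factor of endoderm, had 23.8, 26.1 and 17.8 TPM in the livers, no count in irises 1 and 2, and 0.256 TPM in iris 3. Foxa3, of the same subfamily, was the more abundant one at 227, 152 and 221 TPM. The bile acid receptor Nr1h4 (FXR) had 263, 288 and 344 TPM against 18.8, 18.4 and 21.1 TPM, and the xenobiotic receptor Nr1i2 (PXR) had 142, 97.3 and 121 TPM against 3.53, 2.77 and 2.14 TPM. Nr1i3 (CAR), which also senses foreign compounds, differed less, with 113, 178 and 240.3 TPM in the livers and 38.5, 45.1 and 45.2 TPM in the irises (log2 fold change -2.94 ± 0.27). The factor higher in iris was Esrrg, an orphan receptor of oxidative metabolism, with 10.5, 10.1 and 11.04 TPM in the irises and 0.224, 0.68 and 2.02 TPM in the livers. Tbx3, a T-box repressor, was called higher in liver (log2 fold change -2.14 ± 0.40), but in TPM liver 1 with 8.94 lay within the range of the irises, which held 9.96, 7.95 and 8.79, and livers 2 and 3 lay above it at 28.5 and 25.6.

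Factors of eye field, optic cup and neural crest formed the opposite group. Of 28 listed factors, 20 passed the filter and 20 were higher in iris, on a background of 29.8%, with a median log2 fold change of 5.33. The filter fixed much of this count, since 14 of the 20 had fewer than 10 counts in every liver. With the other tissue subtracted, 13 of the 20 were left at 0 in liver and the fitted median was 9.40, or 5.88 with those at their bound. Pax6, which specifies the eye, had 197, 204 and 199 TPM in the irises and 2.92, 3.37 and 3.21 TPM in the livers (log2 fold change 5.09 ± 0.12, adjusted p = 5.33e-09). Mitf, the master regulator of melanocytes and pigmented epithelium, had 207, 213 and 199 TPM against 5.06, 4.999 and 3.41 TPM. Otx2, which acts with Mitf in pigmented epithelium, had 151, 122.6 and 136 TPM against 1.23, 1.45 and 1.55 TPM. These 3 were the most abundant members. The 3 irises held nearly the same amounts of each and no liver came near them. Sox10, a neural crest factor of melanocytes and Schwann cells, had 38.5, 34.8 and 34.7 TPM against 0.514, 0.259 and 0.243 TPM. Rax, an eye field factor, was also present, with 52.1, 43.8 and 60.3 TPM in the irises. Foxc1, a forkhead factor of anterior segment mesenchyme, was lower, at 9.56, 11.7 and 9.67 TPM. Of the 8 factors that did not pass the filter, Vax2 had 6.76, 7.75 and 4.40 TPM in the irises and none in the livers, Foxc2 and Foxe3 had no count in any of the 6 samples, Pitx3 had a count only in liver 3, and Foxd1, Sox2 and Twist1 reached at most 2.06 TPM. Several of these factors also act in retina, whose genes were counted in the irises at summed levels of 1406, 1063 and 3383 TPM, and the part of retina in the values was not tested. Without iris 3, where that sum was highest, 21 of 21 tested factors were higher in iris. Irises 1 and 2 held retinal transcripts too, so this fit cannot show the part of retina.

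**Figure D2:**
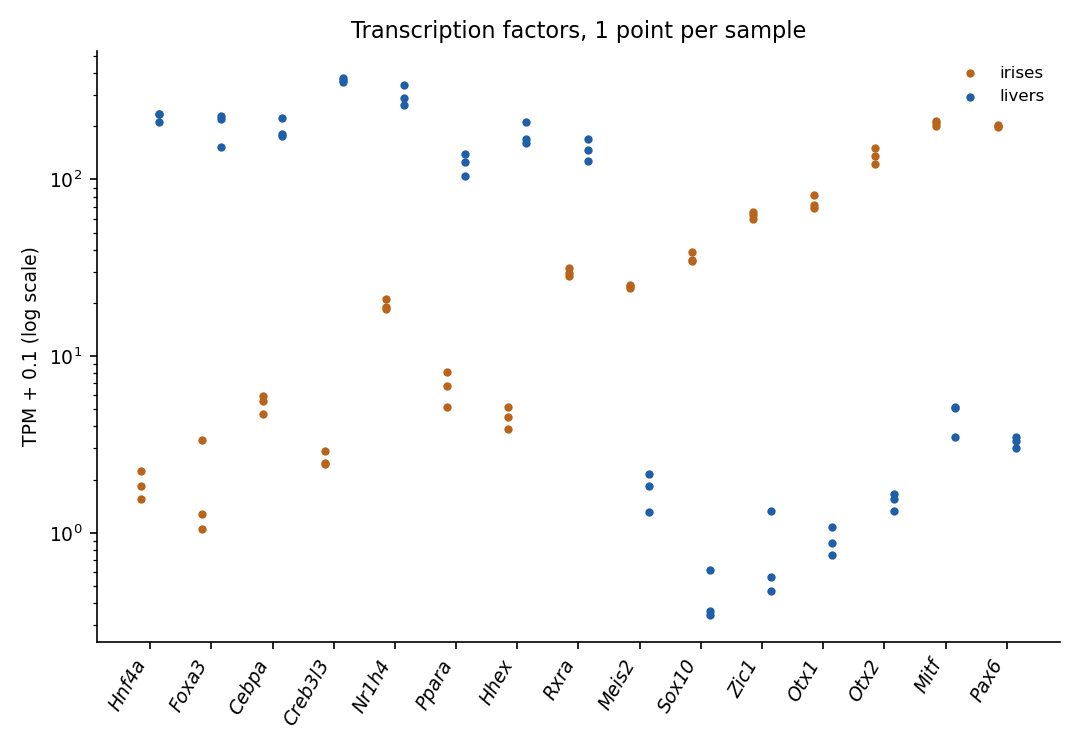
TPM + 0.1 on a log scale for 15 transcription factors (horizontal axis), with 1 point per sample for 3 irises and 3 livers. From Hnf4a to Rxra the livers lie above the irises and from Meis2 to Pax6 below them, without overlap in TPM in any of the 15. The 15 were picked from the lists and leave out Esrrg and Tbx3. Of all genes tested, 78% did not overlap on the normalised scale.

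Families of regulators were less uniform than these lists, on backgrounds of 29.8% towards iris and 22.1% towards liver. Of 14 tested Klf genes, 8 were higher in liver and 3 in iris, or 4 and 4 with library size alone. Klf15, a glucocorticoid-responsive factor of amino acid and glucose metabolism, had 188, 129 and 142 TPM in the livers and 31.8, 20.01 and 21.95 TPM in the irises. Klf5, an epithelial and smooth muscle factor, was at 10.1 TPM or less in the irises and at 0.81 TPM or less in the livers. Of 6 tested T-box genes, 5 were higher in iris, 4 of them with fewer than 10 counts in every liver. Their median log2 fold change was 3.73, or 3.30 with Tbx4 and Tbx22 at their bounds. Tbx20 had 61.2, 60.8 and 58.5 TPM in the irises and 7.49, 2.45 and 1.44 TPM in the livers, while Tbx22 had 10.7, 11.2 and 11.4 TPM in the irises and no count in any liver. Gata4 and Gata6 passed the filter through the livers alone, where they had at most 64 and 43 counts in a sample against at most 1 and 0 in an iris. Of 39 Hox genes, which pattern the trunk, 0 passed the filter, and their summed level was at most 9.64 TPM in a sample. The Meis and Pbx cofactors were higher in iris for 5 of 7, among them Meis1 with 52.2, 56.9 and 51.2 TPM against 2.05, 1.94 and 1.38 TPM. Of 11 tested Sox genes, 3 were higher in iris, namely Sox8, Sox10 and Sox11, and 2 in liver, namely Sox5 and Sox18, shares near the backgrounds of 29.8% and 22.1%. Of 18 tested Fox genes, 2 were higher in iris and 6 in liver, or 5 and 7 of 21 without liver 1, and the median of -0.58 turned to 0.10 with library size alone. Nuclear receptors were split as well, with 9 higher in iris and 15 in liver of 38 tested, and their median of -0.44 likewise turned to 0.24 with library size alone, where 17 and 13 were called. Receptors higher in iris included the retinoic acid receptor Rarb, with 47.3, 49.7 and 54.2 TPM against 10.1, 6.26 and 5.87 TPM, and the thyroid hormone receptor Thra, with 78.3, 72.3 and 69.0 TPM against 9.97, 10.7 and 7.57 TPM. The retinoid partner Rxra was higher in liver, at 169, 127 and 147 TPM against 29.4, 31.3 and 28.2 TPM.

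Pigment cell genes gave the largest surplus of TPM in iris among the lists. All 16 listed genes were tested and 16 were higher in iris, on a background of 29.8%, with a median log2 fold change of 4.55. With the other tissue subtracted, 7 were left at 0 in liver and the fitted median was 8.20, or 6.53 with those at their bound. Their sum was 13217, 13699 and 13104 TPM in the irises and 642, 633 and 657 TPM in the livers. Dct, dopachrome tautomerase of the melanin pathway, had 2487, 2644 and 2459 TPM in the irises and 208, 220.4 and 205 TPM in the livers (log2 fold change 2.69 ± 0.10, adjusted p = 3.61e-08). Pmel, the fibril protein of melanosomes, had 2312, 2453 and 2367 TPM against 151, 159.6 and 159 TPM, and Tyrp1, the enzyme next to tyrosinase, had 1923, 2028 and 1887 TPM against 81.5, 76.2 and 87.2 TPM. Dct, Pmel and Tyrp1 held 1.37, 1.29 and 1.05 counts per base and library in the irises, and undoing the modelled limit moved the log2 fold change of Dct to 3.66 and that of Pmel to 3.89. Tyr, the gene of tyrosinase, whose loss makes a mouse albino, was transcribed at 651, 723 and 683 TPM in these irises of albino mice and was at 12.01, 10.6 and 11.96 TPM in the livers (log2 fold change 5.00 ± 0.11). The transporter genes Oca2, Slc45a2 and Slc24a5, which shape the inside of the melanosome, had means of 377 ± 17.6, 441 ± 19.5 and 863 ± 33.3 TPM (SD, n = 3) in the irises. Ednrb, the endothelin receptor of melanoblasts, had 203, 224 and 221 TPM in the irises and 20.5, 8.37 and 8.17 TPM in the livers. Kit, the stem cell factor receptor, was the member closest to parity, with 13.2, 12.2 and 11.7 TPM against 1.41, 1.58 and 2.15 TPM (log2 fold change 1.96 ± 0.22).

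Promoter windows, from 250 bases before to 50 bases after the transcription start, were read from RefSeq (GRCm38.p6), which held one for 11 of the 16 pigment cell genes and for 27 of the 36 plasma protein genes. Those of Tyrp1 (plus strand, chr4:80833963-80834262) and Tyr (minus strand, chr7:87493463-87493762) are printed 5′ to 3′ because both carry the M-box, the element of pigment gene promoters to which Mitf is known to bind, in capitals (TCATGTG on either strand).
Tyrp1: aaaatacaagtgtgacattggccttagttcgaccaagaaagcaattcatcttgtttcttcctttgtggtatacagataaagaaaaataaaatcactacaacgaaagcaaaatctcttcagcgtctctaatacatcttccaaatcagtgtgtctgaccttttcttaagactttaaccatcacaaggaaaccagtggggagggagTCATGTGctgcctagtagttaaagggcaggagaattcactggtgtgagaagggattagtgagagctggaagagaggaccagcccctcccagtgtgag
Tyr: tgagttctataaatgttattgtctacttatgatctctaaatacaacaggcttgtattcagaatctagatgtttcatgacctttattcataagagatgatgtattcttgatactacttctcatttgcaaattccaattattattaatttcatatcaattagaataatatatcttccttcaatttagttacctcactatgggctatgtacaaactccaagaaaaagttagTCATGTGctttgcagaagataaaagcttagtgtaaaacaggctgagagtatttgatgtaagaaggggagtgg
The M-box letters were in 6 of 11 pigment windows, 54.5%, against 4.31% of 27025 genes with a window, and a match is a description of letters only. Tyr, Tyrp1, Dct, Slc24a5, Mc1r and Trpm1 held it. Of the 27 plasma protein windows, 1 held it, that of Serpinc1.

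Smooth muscle transcripts serve the sphincter and dilator of the pupil and the walls of vessels. They were higher in iris for 14 of 15 tested genes, on a background of 29.8% (median log2 fold change 3.57). Of the 14, 3 had fewer than 10 counts in every liver. Acta2, smooth muscle actin, had 1713, 1659.9 and 1595 TPM in the irises and 82.1, 81.4 and 76.3 TPM in the livers (log2 fold change 3.48 ± 0.10, adjusted p = 9.48e-09). Myl9, a regulatory light chain of myosin, had 1779.5, 1917 and 1839.6 TPM against 80.3, 89.1 and 82.3 TPM. Myh11, the smooth muscle myosin heavy chain, had 670.1, 652 and 664 TPM against 9.45, 9.77 and 9.94 TPM, the steepest of the 3. Irises agreed closely for these transcripts and were clear of the livers. Cald1, caldesmon, which non-muscle cells also use, was the exception, with 77.1, 72.7 and 64.3 TPM in the irises and 73.8, 62.2 and 65.1 TPM in the livers, and was not called. Myocd, the coactivator of the smooth muscle programme, was at 1.04 TPM or less and was not tested.

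Receptors through which nerves set the pupil were at lower levels. Of 12 tested, 6 were higher in iris and 1 in liver, on backgrounds of 29.8% and 22.1%. Of the 6, 5 had fewer than 10 counts in every liver. Chrm2, a muscarinic receptor, had 24.1, 28.8 and 33.1 TPM in the irises and 0.23, 0 and 0.109 TPM in the livers (log2 fold change 6.98 ± 0.40). Chrm3, the muscarinic receptor best known for sphincter contraction, had 1.73, 0.712 and 1.62 TPM in the irises and 1.55, 0.781 and 0.293 TPM in the livers, with overlap. Chrm4, not in the list but among the 10 steepest genes, had 46.3, 41.5 and 53.9 TPM in the irises and none in the livers, at least 17.8-fold more against a floor of 3 counts per sample. Oxtr, the oxytocin receptor, had 21.7, 33.1 and 25.1 TPM against 0.291, 0.294 and 0.275 TPM. Adra1b, which mediates adrenaline's action on hepatocytes, was the one higher in liver, at 30.7, 50.6 and 46.8 TPM against 4.97, 5.69 and 5.201 TPM, whereas its relative Adra1a had 6.63, 7.33 and 6.48 TPM in the irises and 2.05, 2.33 and 1.7002 TPM in the livers and was not called. Sarcomere genes of striated muscle were sparse. Of 15 listed, 5 were tested, 3 were higher in iris and 1 in liver, or 5 and 1 of 8 without liver 1. With all samples, the 3 had fewer than 10 counts in every liver and the 1 fewer than 10 in every iris. The one in liver was Neb, the thin filament protein nebulin, with 2.11, 2.16 and 1.53 TPM in the livers and 0.182, 0.073 and 0.161 TPM in the irises. Those in iris included Mybpc1, a slow muscle myosin binding protein, with 26.8, 27.2 and 34.8 TPM, and Ckm, muscle creatine kinase, with 33.5, 43.9997 and 53.6 TPM, while the myosin heavy chains Myh1, Myh2 and Myh4 were at most 0.101 TPM in every sample.

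For smooth muscle, 12 of 16 genes had a promoter window. That of Myl9 (plus strand, chr2:156775214-156775513) is printed 5′ to 3′ as the member with the CArG box, the element of serum response factor, in capitals.
Myl9: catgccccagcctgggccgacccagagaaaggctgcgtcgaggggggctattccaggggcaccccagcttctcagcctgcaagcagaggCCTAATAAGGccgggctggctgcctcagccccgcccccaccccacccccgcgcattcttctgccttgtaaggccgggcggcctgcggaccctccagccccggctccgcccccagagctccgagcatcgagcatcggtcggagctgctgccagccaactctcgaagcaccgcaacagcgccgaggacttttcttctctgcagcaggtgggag
The CArG box was in 1 of the 12 windows, 8.33%, against 1.81% of 27025 genes, and in 2 of the 27 plasma protein windows, those of Serpinc1 and Hpx.

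Beside these lists, the most abundant genes with a log2 fold change over 3 towards iris were Pmel, Tyrp1, Myl9, Mlana, Acta2, Gja1, Dkk3, Cryab, Tagln and Penk. Gja1, the gap junction protein connexin 43, had 1447, 1517 and 1393 TPM in the irises and 54.7, 47.8 and 55.4 TPM in the livers. Dkk3, a secreted relative of Wnt inhibitors, had 1384, 1389 and 1301 TPM against 55.0, 38.6 and 42.4 TPM. Penk, the precursor of enkephalin peptides, had 1204, 1028 and 1019.8 TPM against 27.7, 29.7 and 32.3 TPM (log2 fold change 4.29 ± 0.14). Of the bases of Penk, 14.3% overlap A830012C17Rik on the opposite strand, and counting ignored strand. Among called genes at a mean of 20 TPM or more in iris, the 10 with the largest fitted differences had no count in any liver, so their differences are lower bounds. Kcnj3, a G protein-gated potassium channel, had 21.3, 24.7 and 22.8 TPM in the irises, at least 31.2-fold more than in liver, although 31.1% of its bases overlap Gm26794 on the opposite strand. Ces5a, a carboxylesterase, had 37.4, 54.5 and 46.2 TPM, Sstr4, a somatostatin receptor, 33.7, 40.1 and 37.1 TPM, and Mchr1, the receptor of melanin-concentrating hormone, 26.6, 20.5 and 13.6 TPM. Tex11, Pabpc1l and Gm43670 were also among them, at 15.1 to 42.1 TPM. Nrl, the factor that sets rod identity, had 36.4, 12.05 and 113 TPM in irises 1, 2 and 3, and Cplx4, a complexin of retinal synapses, 21.9, 10.3 and 124 TPM. Both were highest in iris 3 and lowest in iris 2, the order of the rod gene Sag described further on.

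On the liver side, the most abundant genes past the same limit were Hpx, Ahsg, Apoa2, Gc, Cyp2e1, Apoa1, Hp, Fabp1, Gm20425 and Trf. Fabp1, the liver fatty acid binding protein, had 2037, 2756 and 2467 TPM in the livers and 122.6, 239 and 162 TPM in the irises. Gm20425 shares 69.6% of its bases with Trf, transferrin, and reads in shared exons were counted for both, so these are not separate observations. AY036118 and CT010467.1, among the 10 most abundant genes of both tissues, overlap Gm42418 on the opposite strand and are uncertain. Among the 10 steepest genes of liver, Nags, which makes the obligatory activator of the urea cycle, had 54.7, 49.9 and 54.1 TPM in the livers and no count in an iris, at least 151-fold more. Gdf2 (BMP9), a circulating ligand of endothelial receptors, had 57.4, 19.1 and 22.5 TPM in the livers, at least 97.0-fold more, with liver 1 highest. Cyp2a22, Gm13449 and Gm16553 were likewise absent from the iris counts, at least 47.9-fold, 39.7-fold and 29.6-fold lower there. Gm13449 and Gm16553 share bases with Hc and Clec4g on the opposite strand. Inhbe, a hepatic inhibin chain, had 30.02, 164 and 145 TPM, lowest in liver 1. Cdhr5, a cadherin of microvilli, had 231, 146 and 166 TPM against 0.228, 0.977 and 0.461 TPM. The remaining genes were Ugt2b35 at 89.8 to 104 TPM, Gm5524, and Cd5l, a secreted protein of macrophages, with 116, 108 and 145 TPM in the livers and at most 0.315 TPM in an iris.

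In the urea cycle 9 of 9 genes were higher in liver, on a background of 22.1% (median log2 fold change -4.95). Cps1, the entry enzyme, had 1531, 883 and 1073 TPM in the livers and 10.6, 14.7 and 14.9 TPM in the irises. Arg1, the arginase that releases urea, had 1904, 1613 and 1512 TPM against 30.5, 43.9 and 36.99 TPM. Asl, argininosuccinate lyase, which also supplies arginine in other tissues, kept 122, 119 and 121 TPM in the irises against 549, 329.9 and 358 TPM (log2 fold change -2.65 ± 0.16). Of 30 genes of amino acid catabolism, 27 were higher in liver. Tat, tyrosine aminotransferase, had 1645, 1038 and 989.7 TPM against 13.5, 16.8 and 13.1 TPM. Sds, serine dehydratase, had 904, 197 and 229 TPM, with liver 1 far above the others. Those not called were Gldc, Sdsl and Oat. Oat, ornithine aminotransferase, was abundant in both tissues, with 867, 861 and 812 TPM in the irises and 808, 909 and 995 TPM in the livers, and was called higher in liver only without liver 1 (log2 fold change -1.12).

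All 15 genes of gluconeogenesis and liver glucose handling were higher in liver, on a background of 22.1%, with a median log2 fold change of -6.45. G6pc, which frees glucose for export, had 611, 623 and 446 TPM in the livers and 5.22, 7.71 and 7.54 TPM in the irises (log2 fold change -7.24 ± 0.21). Pck1, the gatekeeper enzyme of gluconeogenesis, had 1659, 700.3 and 1065 TPM against 9.27, 12.2 and 12.6 TPM. The livers were not alike in these genes. Pck1 was highest in liver 1, while Ppp1r3b, a glycogen targeting subunit, was lowest there at 114, 367 and 385 TPM. Bile acid synthesis was higher in liver for 11 of 11 genes. Cyp7a1, the rate-limiting enzyme, had 212, 61.7 and 179 TPM against 2.01, 0.923 and 1.60 TPM, and Slc27a5, the bile acid ligase, 1120.4, 1161 and 1255 TPM against 10.3, 11.3 and 13.9 TPM. Of the transporters of bile acids and bilirubin, 10 of 10 tested were higher in liver, including Slc10a1 (NTCP) with 1069.6, 1473 and 1349.8 TPM against 17.6, 25.7 and 18.8 TPM and Abcb11 (BSEP) with 294, 207 and 207 TPM against 1.63, 1.497 and 1.65 TPM. Slc51a had no count in any sample.

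Enzymes of foreign compound metabolism were higher in liver for 30 of 30 listed genes, on a background of 22.1% (median log2 fold change -6.76), and for 29 with library size alone. Cyp2e1, which oxidises ethanol and small solvents, had 2110.3, 2698 and 2709 TPM in the livers and 208, 228 and 206 TPM in the irises. Cyp3a11, a broad drug oxidase, had 612, 478 and 499 TPM against 20.03, 22.3 and 22.7 TPM. The smallest differences of the list were those of 2 glutathione transferases. Gstp1 had 478, 461 and 482 TPM in the irises and 600.1, 741 and 706 TPM in the livers (log2 fold change -1.42 ± 0.13), and Gsta3 had 263, 285 and 263 TPM against 455, 542 and 529 TPM. Across the whole cytochrome P450 family, 60 of 98 genes were tested, 51 were higher in liver and 3 in iris (1 to 4 in iris with a sample left out), with a median log2 fold change of -6.61, or -6.29 with genes at 0 in a tissue set to their bound. Of the 51, 13 had fewer than 10 counts in every iris. The 3 higher in iris were Cyp1b1, whose loss is known to cause glaucoma, with 27.9, 32.9 and 26.1 TPM in the irises and 10.1, 1.37 and 0.386 TPM in the livers, Cyp2j9 and Cyp4f16. For Cyp1b1 the livers ranged widely, with liver 1 highest. All 18 tested Ugt genes, which attach glucuronic acid, were higher in liver, and 5 of 6 Sult genes, which attach sulphate. Of the 18 Ugt genes 2, and of the 5 Sult genes 2, had fewer than 10 counts in every iris.

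For glucose breakdown the tissues held different isozymes. Of 20 glycolysis genes used by most tissues, 10 were higher in iris and 1 in liver, on backgrounds of 29.8% and 22.1% (median log2 fold change 1.07). The one higher in liver was Ldha. With library size alone, 12 were higher in iris and 0 in liver, and the log2 fold change of Ldha was -0.87. Slc2a1 (GLUT1), the transporter of barrier epithelia and endothelium, had 670.2, 673 and 582 TPM in the irises and 21.9, 24.5 and 25.01 TPM in the livers (log2 fold change 3.86 ± 0.13). Ldhb, the lactate-oxidising subunit, had 859, 875 and 858 TPM against 44.4, 41.7 and 39.5 TPM. Pkm, muscle pyruvate kinase, had 799, 826 and 804 TPM against 67.8, 41.7 and 37.5 TPM. Enzymes of the middle of the pathway were near parity in TPM, such as Tpi1 with 485, 514 and 485 TPM against 469, 471 and 431 TPM and Gapdh with 96.3, 100.01 and 100.2 TPM against 92.4, 95.0 and 87.3 TPM. In 18 pairs of genes that serve the same reaction, the form typical of liver was higher in liver in 17, the other form was higher in iris in 10, and both held in 9. For the glucose transporters, Slc2a2 (GLUT2) took 93.1% ± 0.873 of the summed TPM of its pair with Slc2a1 in the livers and 0.663% ± 0.114 in the irises (SD, n = 3). Ldha made up 93.0% ± 0.459 of its pair with Ldhb in the livers and 28.98% ± 0.814 in the irises. Pklr varied most among the livers, at 84.2% ± 11.5 of its pair with Pkm, and was 0.437% ± 0.0588 of it in the irises. In 12 of 18 pairs the share of the liver form lay above 50% in liver and below 50% in iris. Pairs of alcohol dehydrogenase (Adh1 and Adh7), of Fabp1 with Fabp4 and of Fbp1 with Fbp2 kept a share of 98.2% or more in each sample, and in the first 2 both forms were higher in liver. Fbp2 had no count in any sample, so the share of Fbp1 was 100% by construction.

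**Figure D3:**
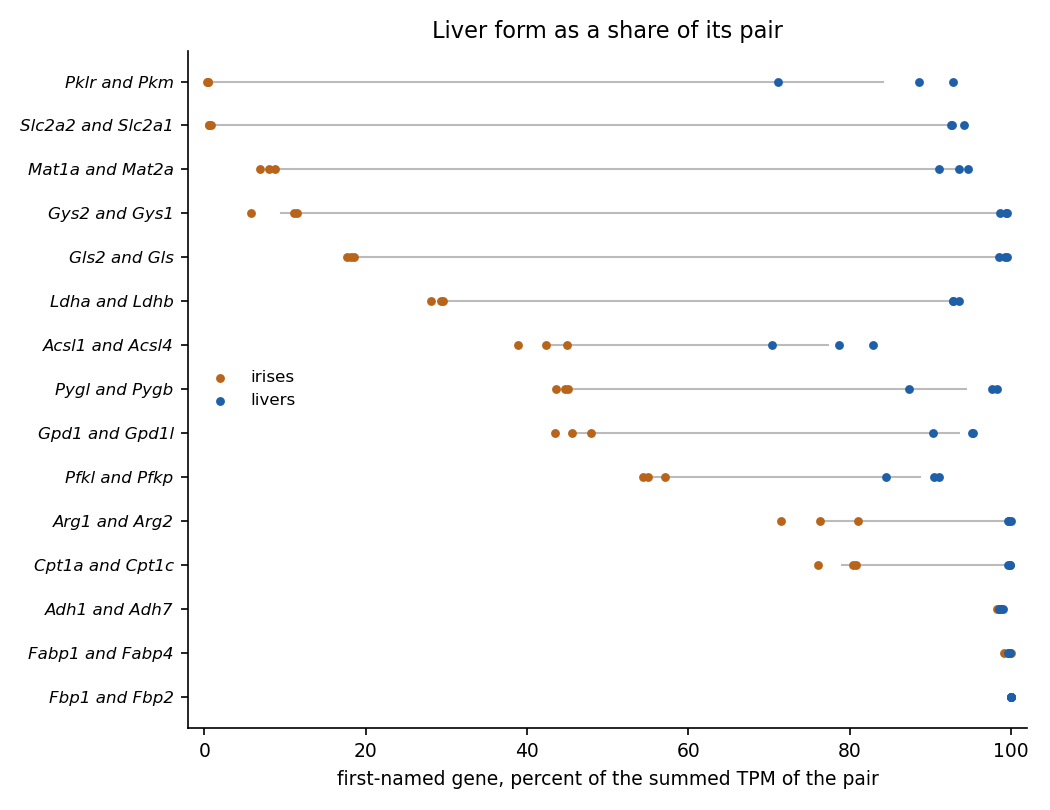
The first-named gene as a percent of the summed TPM of its pair, for 15 of the 18 pairs, with 1 point per sample for 3 irises and 3 livers and a line between the tissue means. For 12 pairs the livers lie above the irises without overlap, and the pairs of Adh1, Fabp1 and Fbp1 stay near 100% in both. The partner of Fbp1 had no count in any sample.

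Genes of fatty acid oxidation were well represented in both tissues. Of 20 genes, 19 were higher in liver, on a background of 22.1%, with a median log2 fold change of -2.38. Acadm, which starts the oxidation of medium chains, had 133, 149 and 145 TPM in the irises and 384, 296 and 370.0 TPM in the livers (log2 fold change -2.18 ± 0.11). Fgf21, the fasting hormone of liver, had 89.9, 104 and 97.8 TPM in the livers and at most 0.69 TPM in an iris. Retinoid genes were split. Of 13 tested, 5 were higher in each tissue, and 4 of the 5 towards iris had fewer than 10 counts in every liver. Stra6, the receptor that takes retinol from plasma, had 58.7, 57.04 and 52.2 TPM in the irises and 0.478, 0.121 and 0.566 TPM in the livers. Rbp4, the plasma carrier it receives retinol from, had 2019, 2031 and 2011 TPM in the livers and 113, 146 and 121 TPM in the irises. Of the enzymes of retinoic acid synthesis, Aldh1a2 was higher in iris, with 62.3, 64.9 and 61.6 TPM against 1.23, 1.24 and 0.582 TPM, and Aldh1a1 in liver, with 965, 1257 and 1290.4 TPM against 420.3, 463 and 441 TPM. Crabp2, a cellular carrier of retinoic acid, was at 74.0, 48.1 and 60.1 TPM in the irises and under 1 TPM in each liver.

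Transcripts of general cell maintenance gave small differences, and the calls depended on the scaling. Of 27 nuclear genes of the respiratory chain, 21 were higher in liver on the TMM scale (median log2 fold change -1.11), but 2 with library size alone (median -0.43). Cox5a, a subunit of complex IV, had the largest of these differences and shares 38.7% of its bases with Gm26631 on the opposite strand, with 277, 273 and 326 TPM in the irises and 691, 808 and 682 TPM in the livers (log2 fold change -2.21 ± 0.13). The ATP synthase subunit Atp5a1 had 755, 766 and 743 TPM against 796, 777 and 762 TPM and was not called. Of 78 tested genes of cytosolic ribosomal proteins, 46 were higher in liver by TMM and 1 by library size. Among 16 housekeeping genes, 5 were higher in liver and 0 in iris, and library size alone left 1 in each direction. Ppia, a cyclophilin, had 99.7, 104 and 108 TPM in the irises and 84.4, 89.9 and 83.3 TPM in the livers, and was not called. B2m, the light chain of class I antigen molecules, had 1241, 1330.0 and 1215 TPM against 2002, 1992 and 1865 TPM and was higher in liver (log2 fold change -1.52 ± 0.09). For mitochondrial genes, 11 of 13 were tested and mt-Nd2 alone was called, higher in liver, while without liver 1 mt-Co1, mt-Atp6 and mt-Atp8 were called as well. Their summed level was 15490.1, 16386 and 15308 TPM in the irises and 15768, 16385 and 15468 TPM in the livers, and the most abundant, mt-Nd1, mt-Cytb and mt-Atp8, held over 1 count per base per library in both tissues. Undoing the modelled limit moved the log2 fold change of mt-Nd1 from -0.89 to -0.53.

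**Figure D4:**
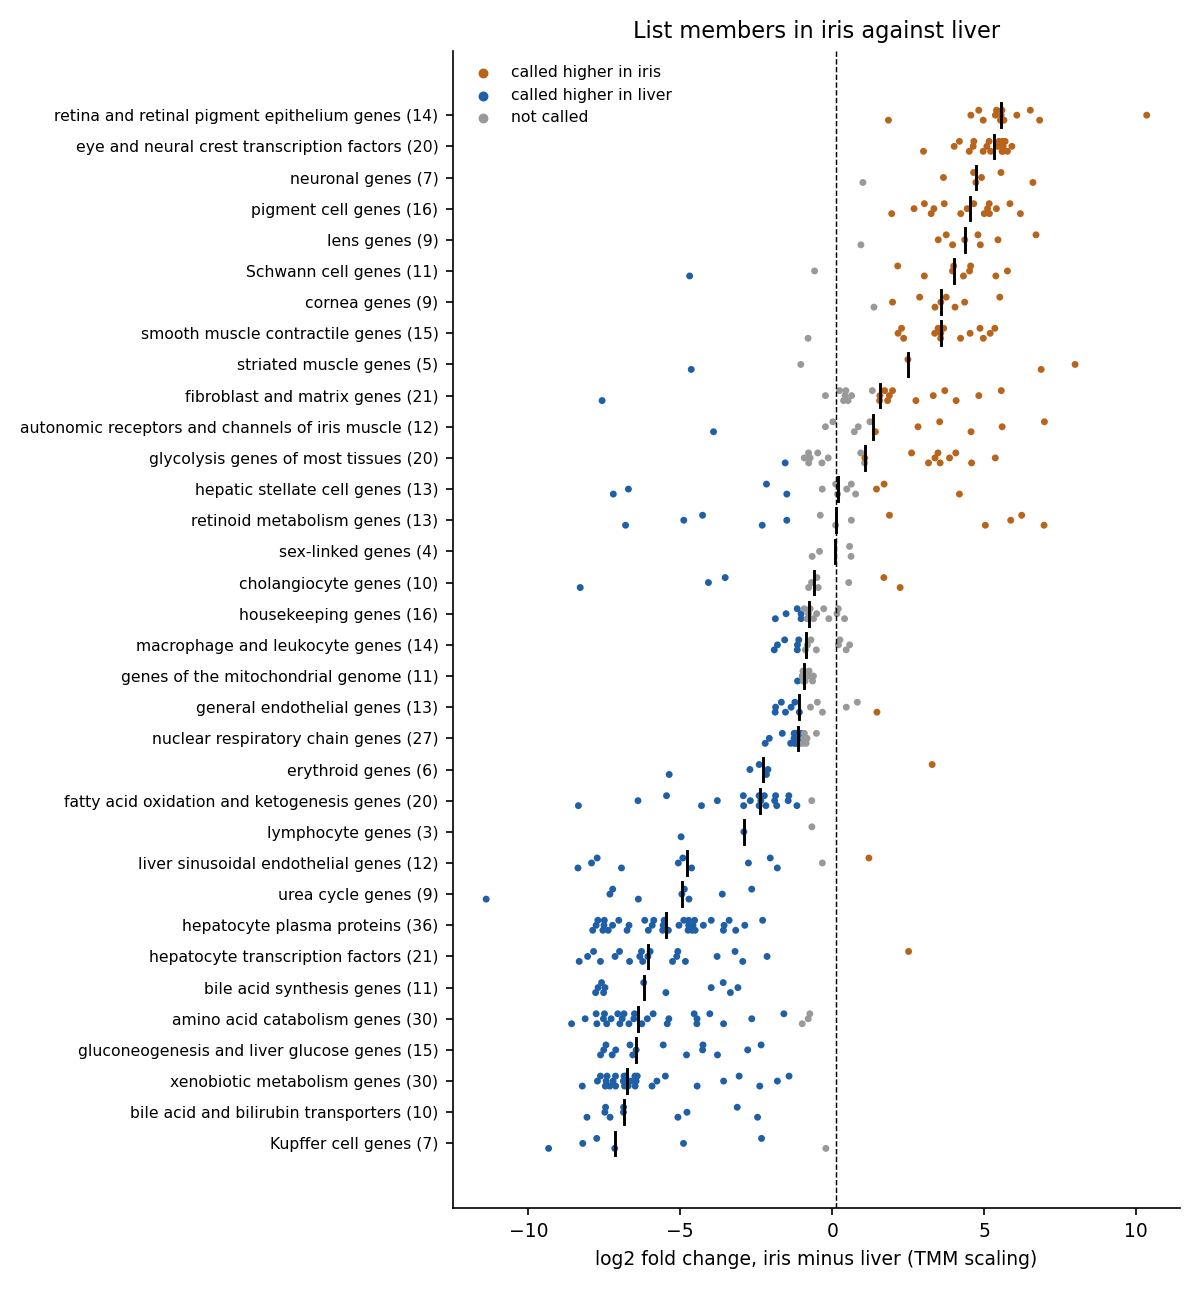
Log2 fold change, iris minus liver on the TMM scale, of each tested member of 34 lists, with the number tested in brackets, black bars at list medians and a dashed line at 0.11, the median of all genes tested. Plasma protein, hepatocyte factor, urea, glucose, amino acid, bile acid and xenobiotic lists reach medians of -4.95 to -6.87, and pigment, eye and smooth muscle lists 3.57 to 5.33.

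Transcripts of neighbouring eye tissues were counted in the irises in amounts that differed between samples. For the retina and retinal pigment epithelium, 14 of 14 tested genes were higher in iris than in liver, on a background of 29.8% (median log2 fold change 5.55, or 5.47 with genes at 0 in liver set to their bound). Sag, rod arrestin, had 47.8, 26.1 and 169.6 TPM in irises 1, 2 and 3 and 1.41, 1.82 and 1.41 TPM in the livers. Iris 3 was highest and iris 2 lowest. Gnat1, rod transducin, was called but overlapped on the TMM scale, and the call was lost without iris 3 (log2 fold change 0.89), liver 2 or liver 3 (1.76 and 1.69), with 261, 119 and 743 TPM in the irises and 77.1, 48.3 and 43.97 TPM in the livers. Rpe65, the isomerase of the retinal pigment epithelium, had another order, with 15.2, 58.1 and 19.4 TPM, highest in iris 2, and so had Rgr, a pigment epithelium opsin, with 103, 258 and 127 TPM. Rlbp1, the retinaldehyde binding protein, was even, with 326, 353 and 345 TPM in the irises and 2.21, 5.11 and 3.59 TPM in the livers. Without iris 3, 13 of 14 retinal genes were higher in iris and the median log2 fold change was 4.62. Of the 14, 9 had fewer than 10 counts in every liver, and with the other tissue subtracted 12 were left at 0 there. Lens crystallins had a different order again. Cryaa, alpha A crystallin, had 204, 304 and 78.8 TPM in the irises, lowest in iris 3, and Crybb2 had 47.7, 61.9 and 10.9 TPM. Cryab, alpha B crystallin, a chaperone that muscle also uses, was even, at 1105, 1117 and 1119 TPM, as was Bfsp2, known as a filament protein of the lens, at 381, 387 and 383 TPM. Mip, the main membrane protein of lens fibres, was at 2.24 TPM or less.

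Corneal genes varied too. Krt12, the keratin of corneal epithelium, had 22.03, 5.55 and 121 TPM in the irises, 21.9-fold more in iris 3 than in iris 2, and 1.505, 0.76 and 2.49 TPM in the livers (log2 fold change 4.04 ± 1.20, adjusted p = 0.0135). The call was lost without liver 2 (log2 fold change 3.73), and 54.4% of the bases of Krt12 overlap A830036E02Rik on the opposite strand. Kera, the proteoglycan keratocan of the corneal stroma, had no count in any sample. Of 9 tested corneal genes, 8 were higher in iris, on a background of 29.8%, and 7 to 9 with a sample left out. Of the 8, 3 had fewer than 10 counts in every liver. Neuronal genes were low except in iris 3. Snap25, a synaptic vesicle fusion protein, had 12.4, 13.7 and 55.2 TPM in the irises, and the list summed to 79.9, 72.8 and 191 TPM. Of 7 tested, 6 were higher in iris, and all 6 had fewer than 10 counts in every liver, so the filter fixed this count. The RNAs of Th, Chat and Dbh, the enzymes that define sympathetic and cholinergic nerves, reached at most 0.77 TPM. By protein staining the authors saw sympathetic and parasympathetic nerves in iris tissue around grafts, and protein was not measured here. Schwann cell genes were even between irises and higher than in liver for 9 of 11 tested, 6 of which had fewer than 10 counts in every liver. S100b, a calcium binding protein of glia and melanocytes, had 592, 526 and 499 TPM against 5.16, 6.64 and 8.89 TPM. Erbb3, a receptor that hepatocytes also carry, was the member higher in liver, with 55.2, 61.2 and 68.4 TPM against 3.99, 5.23 and 4.03 TPM.

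**Figure D5:**
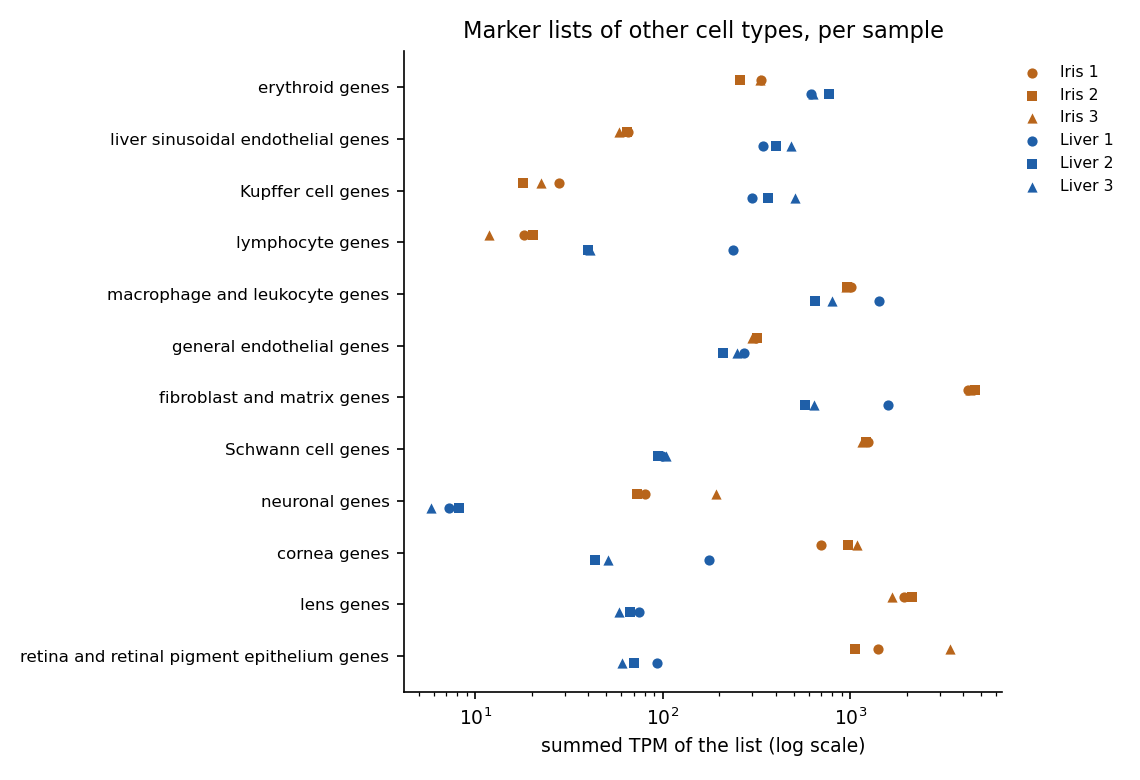
Summed TPM of 12 marker lists (log scale, horizontal axis) in each of 3 irises and 3 livers, with 1 symbol per sample. Retinal and neuronal sums are highest in iris 3, and fibroblast, lymphocyte and corneal sums are highest among the livers in liver 1.

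Genes of connective tissue were mostly higher in iris, and the livers disagreed among themselves. Of 21 fibroblast and matrix genes, 12 were higher in iris and 1 in liver, on backgrounds of 29.8% and 22.1%. The count rose to 16 without liver 1, and was 8 at its lowest when another sample was left out. Col1a1, the main chain of fibrous collagen, had 83.6, 94.0 and 89.8 TPM in the irises and 30.6, 3.86 and 5.93 TPM in the livers (log2 fold change 1.88 ± 0.57, adjusted p = 0.0144), and its call was lost without liver 3 (log2 fold change 1.51). Fbln1, the matrix protein fibulin, had 574, 531 and 509 TPM against 13.2, 9.67 and 8.0003 TPM, and Mfap4, a microfibril protein, 604, 615 and 584 TPM against 40.6, 14.7 and 20.2 TPM. Dcn, the proteoglycan decorin, was abundant in both, with 1610.5, 1680.4 and 1571 TPM in the irises and 919, 367 and 430.3 TPM in the livers, and was called higher in iris only without liver 1 (log2 fold change 1.07). Dpt, dermatopontin, was the member higher in liver, with 139, 18.8 and 13.4 TPM against 1.04, 0 and 0.352 TPM, and liver 1 led by far. Among 32 tested collagen genes, 17 were higher in iris and 4 in liver, or 21 and 4 of 35 without liver 1. With all samples, 7 of the 17 had fewer than 10 counts in every liver and 1 of the 4 fewer than 10 in every iris. Col4a5 and Col4a6, chains of specialised basement membranes, had 97.5, 129 and 113 TPM and 69.6, 82.7 and 82.1 TPM in the irises, and Col9a1, a chain usual in cartilage and vitreous, had 65.6, 56.4 and 70.4 TPM. All 3 were at most 3.01 TPM in a liver. Col18a1, the source of endostatin, was higher in liver, with 269, 287 and 278 TPM against 152, 135 and 142 TPM.

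General endothelial genes were counted in both tissues. Of 13 tested general endothelial genes, 7 were higher in liver and 1 in iris on the TMM scale, and 2 and 3 with library size alone. Cdh5, the adhesion protein of endothelial junctions, had 9.18, 9.98 and 8.98 TPM in the irises and 15.7, 12.4 and 20.5 TPM in the livers. Cldn5, the claudin of tight vessels, had 127, 122.6 and 99.95 TPM against 32.03, 38.3 and 35.9 TPM and was not called. Of 12 markers of liver sinusoids, 10 were higher in liver and 1, Plxnc1, in iris, or 10 and 0 without liver 1 (median log2 fold change -4.77). With all samples, 4 of the 10 had fewer than 10 counts in every iris. Clec4g, a lectin of these cells, had 97.9, 148 and 175 TPM in the livers and 0.487, 1.30 and 0.493 TPM in the irises. Stab2, the hyaluronan scavenger receptor, had 9.94, 15.6 and 13.8 TPM against 0.822, 0.953 and 0.623 TPM, and Gata4, their controlling factor, 10.7, 9.56 and 10.8 TPM against at most 0.164 TPM in an iris. Of 13 tested claudins 4 were higher in iris and 3 in liver, shares near the backgrounds of 29.8% and 22.1%. Cldn19, also known from the retinal pigment epithelium, had 107, 100.4 and 90.9 TPM in the irises and 1.96, 1.16 and 0.928 TPM in the livers, and Cldn3 352, 338 and 303 TPM in the livers and 8.58, 6.12 and 10.1 TPM in the irises.

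Macrophage and Kupffer cell genes were called towards liver alone with all samples in the fit. Of 14 general macrophage and leukocyte genes, 6 were higher in liver, on a background of 22.1%, and 0 in iris, with a median log2 fold change of -0.85. Without liver 1 these numbers were 3 and 2, and with library size alone 2 and 0. Csf1r, the growth factor receptor of macrophages, had 39.4, 41.4 and 34.8 TPM in the irises and 40.8, 22.2 and 27.5 TPM in the livers and was not called. Of 7 tested Kupffer cell genes, 6 were higher in liver, 4 of them with fewer than 10 counts in every iris. Clec4f, the lectin restricted to Kupffer cells, had 31.3, 101 and 123.01 TPM in the livers, 3.93-fold more in liver 3 than in liver 1, and 0.243, 1.04 and 0.245 TPM in the irises. Vsig4, a complement receptor of resident macrophages, had 44.1, 50.8 and 73.3 TPM against 0.404, 0.433 and 0.409 TPM. Cd163, a scavenger receptor of many tissue macrophages, was not called, at 8.68, 3.996 and 4.22 TPM in the irises and 0.893, 3.35 and 6.16 TPM in the livers. Lymphocyte genes were led by liver 1. Their sum was 236, 39.7 and 40.997 TPM in livers 1, 2 and 3 and 18.2, 20.4 and 11.8 TPM in the irises, and Nkg7, a granule protein of killer lymphocytes, had 91.3, 14.4 and 10.5 TPM in the livers. Of 12 listed lymphocyte genes, 3 were tested, 2 were higher in liver and Cd4 was not called, and without liver 1 the count was 3 of 4. The 2 called with all samples had fewer than 10 counts in every iris.

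Genes of stellate cells, cholangiocytes and red cells were counted in both tissues. Of 13 tested stellate cell genes, 4 were higher in liver and 3 in iris, shares near the backgrounds of 22.1% and 29.8%, or 4 and 6 without liver 1. Colec11, a collectin, had 212, 101 and 107 TPM in the livers and 2.17, 1.39 and 3.51 TPM in the irises, and Tcf21, a mesenchymal factor, 80.3, 34.5 and 28.03 TPM against 0, 1.05 and 0.496 TPM. Reln, the secreted protein reelin, went the other way, with 45.5, 58.2 and 47.9 TPM in the irises and 12.5, 6.85 and 5.9996 TPM in the livers. Among 10 cholangiocyte genes, 3 were higher in liver, among them Epcam and Tspan8, and 2 in iris, namely Cftr and Muc1, on the same backgrounds. The 3 had fewer than 10 counts in every iris and the 2 fewer than 10 in every liver. Spp1, osteopontin, was abundant in both tissues, with 1014, 950.3 and 905 TPM in the irises and 514, 298 and 263 TPM in the livers. Keratins were higher in iris for 7 of 11 tested and in liver for 2, and 5 of the 7 had fewer than 10 counts in every liver. Krt8 and Krt18, the keratins of simple epithelia, were higher in liver, at 612, 537 and 458 TPM and 938, 739 and 673 TPM, though Krt18 kept 526, 414 and 374 TPM in the irises. Of 6 tested erythroid genes 1 was higher in iris and 5 were higher in liver, such as the globin Hbb-bs with 247, 291 and 206 TPM against 117, 75.9 and 125 TPM, and the heme synthesis enzyme Alas2 with 149.6, 219.7 and 249 TPM against 11.7, 6.68 and 9.34 TPM.

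Liver 1 also differed from livers 2 and 3 in hepatocyte genes, and those named here were chosen after their values were seen. Cyp4a12a, a fatty acid hydroxylase known to be male-biased in mouse liver, had 35.4, 348 and 336 TPM in livers 1, 2 and 3. Slco1a1, a male-biased organic anion transporter, had 10.2, 276 and 325 TPM, and Mup3, a major urinary protein, 678, 1804 and 1647 TPM. Slco1a4, known as a female-biased transporter, had 132, 32.9 and 37.3 TPM. Genes of the Y chromosome were counted in every sample, with Ddx3y at 73.3, 72.6 and 68.5 TPM in the irises and 49.9, 49.96 and 54.7 TPM in the livers, and Xist, the RNA of the inactive X chromosome, was at most 0.335 TPM.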

How the data were processed

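RNA from 3 irises without explants and 3 livers was sequenced as 3 Smart-seq3 libraries per sample. The authors removed duplicates and counted reads per gene, and the processing notes name TopHat2, SAMtools, mm10 and featureCounts 1.4.6-p5. The deposited counts, unstranded and with reads over several genes counted for each, were whole numbers summed over the libraries by the authors, and the deposited TPM were used as levels. Groups followed the labels. In R 4.3.3, edgeR 4.0.16 (filterByExpr, TMM factors, quasi-likelihood test, Benjamini-Hochberg adjusted p under 0.05 and absolute log2 fold change over 1) compared irises with livers over 15459 genes. In simulated counts (14922 genes tested) it recovered 98% of 100 genes changed 2-fold and 100% of 100 changed 4-fold, with 7 unchanged genes passing. The simulation gave all samples the irises' mean levels and a fixed spread, and changed only well counted genes, equally in both directions. It held neither the large share of differing genes nor the wider spread of the livers, so these rates do not describe the real comparison. limma 3.58.1, DESeq2 1.42.0, other scalings and filters, single technical libraries and fits without each sample were alternatives. A limit of 1.7 counts per base and library was assumed and undone in an alternative, and in another the other tissue was subtracted.

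Genes were named as members of 34 lists, 21 families or 18 isozyme pairs, as the 10 steepest called genes per direction at 20 TPM or more, as the 10 most abundant per tissue, or as the 10 most abundant called with a log2 fold change over 3. Members and lists were chosen with earlier results of these data known. Against a tissue at 0, folds used a floor of 3 counts per sample. Promoter windows were searched on both strands. Of the 46517 genes, 46005 had a symbol in the reference table. ERCC control RNAs were left out of tests. Some members of the lists are not reported here.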

Additional observations from a re-analysis of the deposited data

Results flagged for a closer look

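Counts on ERCC control RNAs, synthetic transcripts that are added to some libraries as spike-ins, fell outside the main measurement and came to 161 over the 6 samples. The 92 control sequences held 23, 35 and 30 counts in irises 1, 2 and 3 and 13, 29 and 31 counts in livers 1, 2 and 3, against totals of 3523171 to 4881817 counts on genes. Their source was not tested. With 3 samples per tissue, no test for a sample far from the others was run within a tissue.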

How the results depend on the processing

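The counts of genes called stayed within 1.5 times of 4606 towards iris and 3422 towards liver except in these cases. An absolute log2 fold change over 2 gave 3006 and 1696, library size alone gave 1973 towards liver, and no fold change limit gave 5334 towards liver. Leaving out 1 sample gave 4489 to 5106 genes towards iris and 3431 to 3661 towards liver, and 7066 of the 8028 called genes (88.0%) kept their call in all 6 such fits. The median of Fox genes, -0.58 by edgeR with TMM, reversed with DESeq2 (0.82), library size alone (0.10) and no filter on low counts (0.97), and that of nuclear receptors, -0.44, with DESeq2 (0.44), library size alone (0.24), no filter (0.49), technical library c alone (0.0045) and without liver replicate 2 (0.015, the top of a range from -0.42 with 1 sample left out); the cause was not tested. With library size alone the medians of claudins (-0.50 to 0.19) and cholangiocyte genes (-0.59 to 0.082) also changed sign, and that of claudins did so without liver replicate 1 (0.092). Medians of retinoid, stellate cell and sex-linked genes, between 0.077 and 0.18, changed sign in some fits, to -0.30 at the lowest. Single technical libraries tested 12750 to 13140 genes in place of 15459. With sample numbers as a replicate block the counts were 4603 and 3364; the deviations of same-numbered samples correlated at 0.030, -0.0046 and 0.00099, so the numbers were not taken to pair samples. Undoing a modelled limit of 1.7 counts per base and library, which was not tested as such, enlarged the absolute log2 fold change of 25 called genes by over 0.5 and shrank that of mt-Nd1 from -0.89 to -0.53. With the other tissue subtracted, 4895 and 3353 genes were called, of which 746 and 98 were left at 0 in the other tissue. With 3 samples against 3, an exact permutation test of a single gene could not go below p = 0.1.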
